A study of Mus musculus with 4 samples.

Results

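The mRNA levels of 9 globin and erythroid genes were followed in the newborn mouse brain: the adult globins Hba-a1, Hbb-b1 and Hbb-b2, the embryonic globins Hba-x, Hbb-y and Hbb-bh1, and the red cell genes Alas2, Slc4a1 and Gata1. The members were the non-control probes whose RefSeq accession belongs to one of these genes, and every such probe was read on every array. Of the 20656 genes named through their accessions, 9 were asked for and 8 had a probe, with 9 probes in all because Hbb-y had 2. No accession on the array belonged to Hbb-b1. The probe that carries its former accession is listed under Hbb-bt in the RefSeq gene table used here, and it was read together with the other adult globin probes that are no members, Hba-a2 and Hbb-bs.

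Whole brains of C57BL/6J mice were collected on postnatal day 1, after the dams had received 25 μL of vehicle (Sham) or of a suspension with 100 μg titanium dioxide nanoparticles (TiO2-H) into the trachea. The protocol in the labels dates the exposure to gestational day 10.5, whereas other text of the labels gives day 14. The RNA of 2 offspring per dam was combined into a single pool per exposure and sex, from 5 dams per Sham pool and 6 dams per TiO2-H pool, and each pool was hybridized to 1 one-color array. One-color arrays report the amount of a target mRNA as the brightness, or intensity, of the spot that carries its probe. A pool hides the spread between litters, and no group had a second array, so that folds within a sex carry no p-value. The test set both TiO2-H arrays against both Sham arrays, and its p-values measure only the spread between these pools, which also differ in labelled sex.

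Red blood cells carry hemoglobin, which is built from alpha-like and beta-like globin chains that are encoded in separate gene clusters and bind heme. The first, primitive red cells of the mouse embryo come from the yolk sac and use the embryonic chains of Hba-x, Hbb-y and Hbb-bh1, and the later, definitive red cells of the fetal liver and bone marrow use the adult chains. GATA1 is a transcription factor that drives erythroid differentiation, ALAS2 is the erythroid enzyme of the first step of heme synthesis, and SLC4A1 (band 3) is the anion exchanger of the red cell membrane. The brain makes no red cells, but its vessels contain blood, and young red cells still hold globin mRNA. Adult beta globin genes differ between mouse strains: C57BL/6 mice carry Hbb-bs and Hbb-bt, and Hbb-b1 and Hbb-b2 are the names of the pair on another haplotype.

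The promoters of the members are shown because the globin genes share short motifs there that are read by erythroid factors. The 250 bases before the first transcribed base are given 5′ to 3′ from the RefSeq promoter table of build GRCm38.p6, whereas the array's design file names the older build mm9. Capitals mark matches on either strand to 4 motifs, which are GATAA (read by GATA factors), CCAAT (the box of that name), CACCC (read by KLF factors) and TATAAA (the TATA box), and a match on the reverse strand shows as the reverse complement.
Hba-x, chr11:32276350-32276599, plus strand: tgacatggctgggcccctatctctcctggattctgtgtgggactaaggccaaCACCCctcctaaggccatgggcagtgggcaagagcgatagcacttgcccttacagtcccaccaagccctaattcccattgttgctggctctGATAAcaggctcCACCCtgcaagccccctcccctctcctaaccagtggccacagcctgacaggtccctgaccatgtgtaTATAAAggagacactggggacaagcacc
Hba-a1, chr11:32283422-32283671, plus strand: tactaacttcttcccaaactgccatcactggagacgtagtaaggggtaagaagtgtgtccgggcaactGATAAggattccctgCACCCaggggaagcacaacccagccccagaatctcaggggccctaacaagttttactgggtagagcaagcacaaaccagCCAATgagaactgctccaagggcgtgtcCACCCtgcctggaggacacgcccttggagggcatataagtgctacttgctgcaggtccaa
Hbb-y, chr7:103853208-103853457, minus strand: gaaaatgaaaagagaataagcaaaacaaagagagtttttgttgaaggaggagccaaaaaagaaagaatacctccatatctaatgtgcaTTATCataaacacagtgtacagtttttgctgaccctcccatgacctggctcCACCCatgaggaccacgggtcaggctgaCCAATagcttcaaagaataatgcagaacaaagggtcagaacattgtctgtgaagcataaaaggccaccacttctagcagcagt
Hbb-bt, chr7:103813924-103814173, minus strand: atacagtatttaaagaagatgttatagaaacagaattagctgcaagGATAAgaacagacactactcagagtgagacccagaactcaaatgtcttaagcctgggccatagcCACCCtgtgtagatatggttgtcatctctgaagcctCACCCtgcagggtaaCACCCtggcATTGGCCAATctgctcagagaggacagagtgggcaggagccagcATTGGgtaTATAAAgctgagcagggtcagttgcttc
Alas2, chrX:150547167-150547416, plus strand: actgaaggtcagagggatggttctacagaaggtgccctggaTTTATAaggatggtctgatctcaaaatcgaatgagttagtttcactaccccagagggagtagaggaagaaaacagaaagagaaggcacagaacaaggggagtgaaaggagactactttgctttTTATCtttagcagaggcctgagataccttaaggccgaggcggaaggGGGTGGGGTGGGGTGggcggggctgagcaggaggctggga
Gata1, chrX:7967911-7968160, minus strand: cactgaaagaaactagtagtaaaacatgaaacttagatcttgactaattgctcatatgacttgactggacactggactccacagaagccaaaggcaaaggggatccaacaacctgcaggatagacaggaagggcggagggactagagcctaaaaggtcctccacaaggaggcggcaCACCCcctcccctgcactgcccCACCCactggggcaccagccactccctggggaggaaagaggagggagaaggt

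Hba-x, Hba-a1 and Hbb-bt had a GATAA match on the forward strand, Hbb-y and Alas2 had it on the reverse strand, and the Gata1 window had none. Among all 32851 promoters of the table, in windows of 300 bases that reach 50 bases into the transcript, GATAA was found in 25.4%, CCAAT in 37.4%, CACCC in 57.5% and TATAAA in 13.6%. A CCAAT match stood 88 bases before the start of Hba-a1 and 83 bases before that of Hbb-y, and the Hbb-bt window held 3 such matches, of which 2 lie side by side. CACCC was found in each of the 6 windows, and in Alas2 as 3 adjoining copies on the reverse strand. Such matches describe the letters of these windows only. The Gata1 window belongs to 1 start site inside the annotated span of the gene. The table was searched for each member, and windows were found for Hba-a1, Hba-x, Hbb-y, Alas2 and Gata1. The Hba-a1 and Hba-a2 windows were 100% identical over 297 bases, and those of Hbb-bs and Hbb-bt were 56.2% identical. The probe sequences were not analysed here.

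The labels of the arrays were checked first. Probe A_52_P113537, 1 of the 2 probes of Xist, the RNA of the inactive X chromosome, gave 17.9 in Sham males and 276 in Sham females. It gave 347 in the pool labelled TiO2-H male and 5.36 in the pool labelled TiO2-H female, and the Y-linked Eif2s3y gave 3519, 419, 6.40 and 4345. All values below are in this order of arrays. The software marked the local background of that Xist spot as an outlier on all 4 arrays, and the other Xist probe carried no such mark. Xist and Eif2s3y went against the sex labels of both TiO2-H arrays, which are therefore called the arrays labelled TiO2-H male and TiO2-H female. Folds within a sex are given by label and with the TiO2-H arrays exchanged. The share of spots well above background ranged from 56.2% to 61.2%, and was higher on both TiO2-H arrays than on both Sham arrays. No spot was saturated. The 4 arrays lay on 1 slide and were scanned together, with the Sham arrays in one row and the TiO2-H arrays in the other, so that the row and the exposure cannot be told apart. All 13 probes of the 10 brain markers (among them Tubb3, Stmn2, Snap25 and Sox2) were well above background on every array.

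The members fell into 3 kinds of probe. The adult globins Hba-a1 and Hbb-b2 and the red cell genes Alas2 and Slc4a1 were well above background on all 4 arrays. The embryonic globins were at or near background everywhere, and Gata1 was well above background on both TiO2-H arrays but on neither Sham array. In all, 7 of the 9 member probes were well above background on at least 1 array and entered the test.

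**Figure D1:**
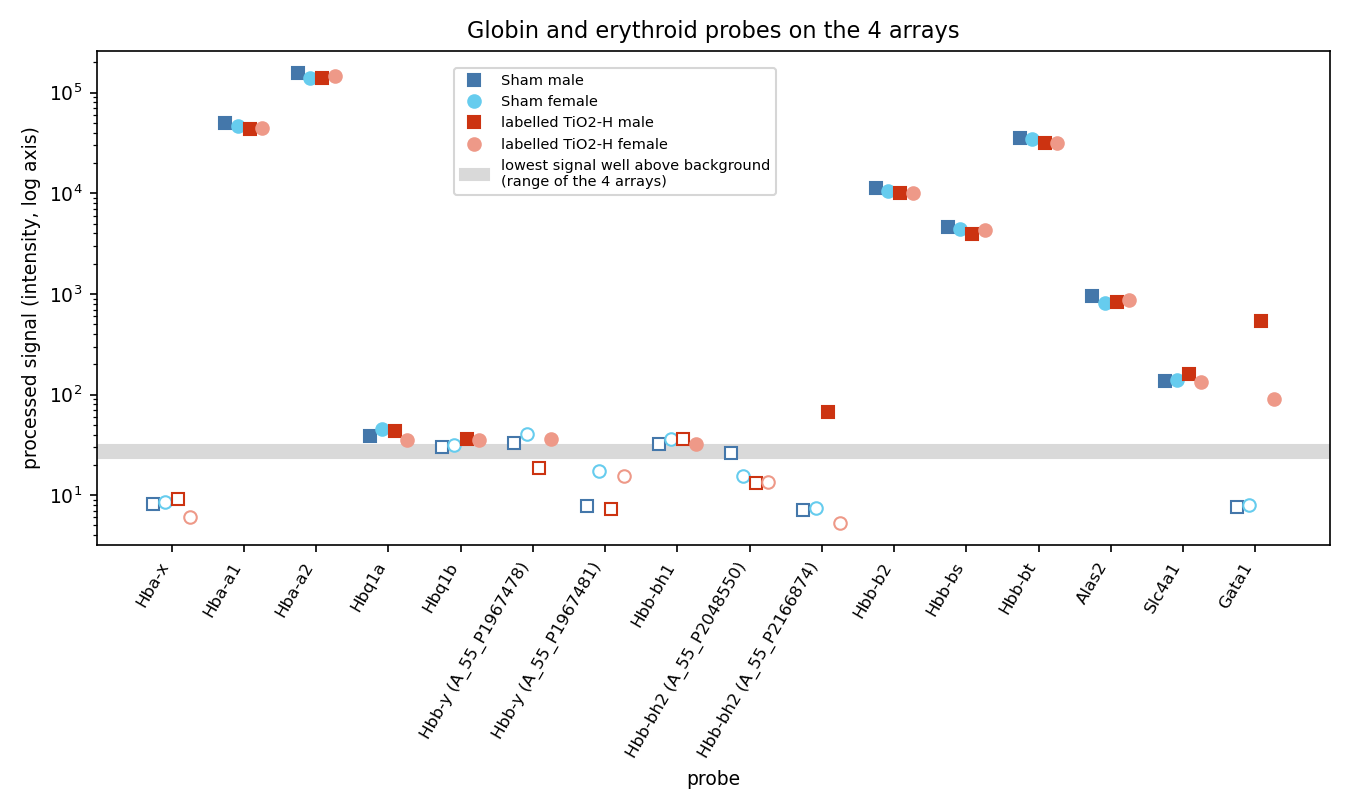
Processed signal (intensity, log axis) of each globin and erythroid probe on the 4 arrays, with filled symbols where the spot was well above background and open symbols where it was not; the gray band spans the lowest signal well above background on the 4 arrays (23.3 to 31.7). Each probe is to be read across its arrays only. The adult globins are bright on every array, the embryonic ones lie near the band, and Gata1 is filled on the TiO2-H arrays alone.

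Adult globin mRNA was lower on both TiO2-H arrays than on both Sham arrays, for each of the 5 adult globin probes, with log2 differences from -0.27 to -0.14. No single probe passed the test after adjustment over all probes. Hba-a1, an adult alpha globin, gave 49658 in Sham males, 46866 in Sham females, and 43750 and 44167 in the pools labelled TiO2-H male and TiO2-H female. Divided by the 75th percentile of each array (scaled signal), these values were 61.3, 58.9, 50.4 and 50.7. The arrays of each exposure lay close together, and the groups did not overlap. The log2 difference of the scaled signal, TiO2-H minus Sham, was -0.25 ± 0.044 (SE, n = 2 against 2; unadjusted p = 0.0105, adjusted p = 0.354 with limma). Which cells held this mRNA was not measured, and in bulk tissue fewer red cells and less globin mRNA per red cell cannot be told apart.

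The probe listed under Hbb-b2, the adult beta globin among the members, had signals of 11359, 10549, 10092 and 10093 in the same order of arrays. Its scaled signal was 14.02 and 13.3 on the Sham arrays and 11.6 on each of the TiO2-H arrays. The log2 difference was -0.23 ± 0.049 (SE; limma, unadjusted p = 0.0179, adjusted p = 0.354). The Sham arrays differed from each other by 0.080 on the log2 scale and the TiO2-H arrays by 0.0053, both less than the difference between the exposures. C57BL/6 mice carry Hbb-bs and Hbb-bt in place of that gene, and which transcript the probe read was not tested.

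The 3 adult globin probes outside the member list gave scaled signals that were ordered in the same way. Hba-a2, the other adult alpha globin, read 193, 175, 163 and 170 (log2 difference -0.14, unadjusted p = 0.131, adjusted p = 0.448 with limma), and its difference was -0.08 without the Sham male array, -0.21 without the Sham female array and -0.03 without scaling. Hbb-bt, the adult beta globin that holds the former Hbb-b1 accession, read 44.1, 43.7, 36.8 and 36.0 (log2 difference -0.27 ± 0.040 (SE), unadjusted p = 0.00641, adjusted p = 0.354 with limma). Hbb-bs, the other adult beta globin of C57BL/6 mice, read 5.65, 5.56, 4.50 and 4.92 (log2 difference -0.25 ± 0.065 (SE), unadjusted p = 0.0297, adjusted p = 0.354 with limma). The TiO2-H arrays were below the Sham arrays in each case, by the narrowest margin in Hba-a2. The 5 probes share their 4 RNA pools and may share targets, so that they are no independent measurements of the exposure.

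**Figure D2:**
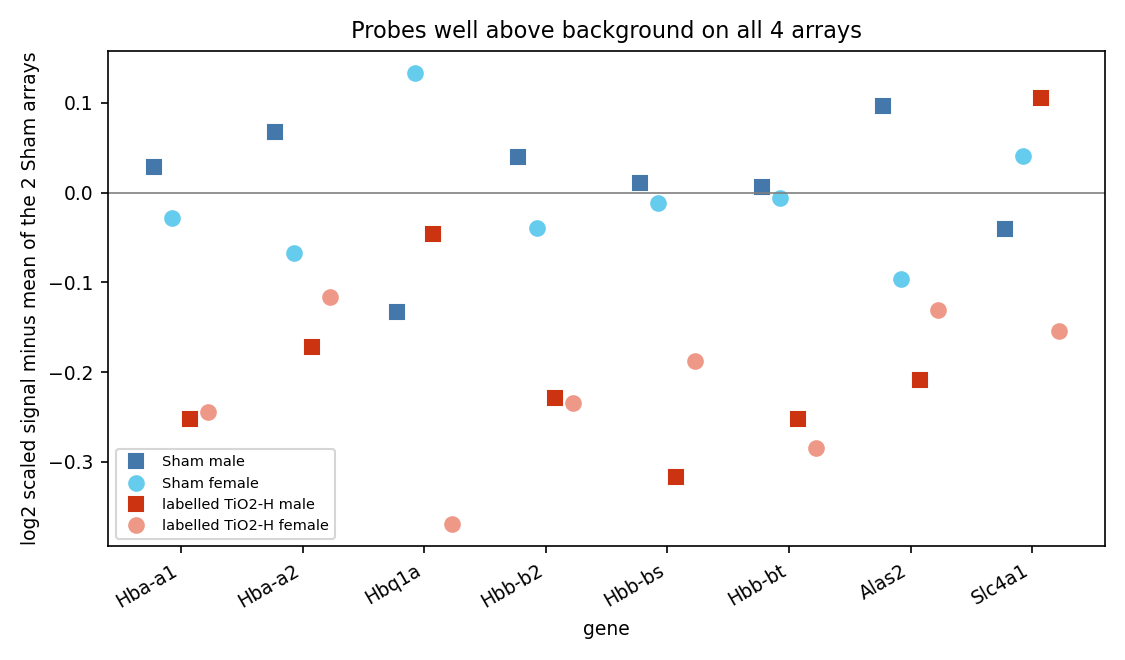
Log2 scaled signal of each globin and erythroid probe that was well above background on all 4 arrays, minus the mean of its 2 Sham arrays (line at 0); squares are arrays labelled male, circles arrays labelled female. For the 5 adult globins and Alas2 both TiO2-H points lie below both Sham points, and for Slc4a1 and Hbq1a the exposures overlap.

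Many other probes were also separated by exposure. Both TiO2-H arrays were below both Sham arrays for 23.7% of the 35626 probes tested and above them for 29.1%. Among the 6048 probes at least as bright as the dimmest adult globin probe, 40.4% were below, and 17.2% were below with a mean log2 difference of at least 0.1 in size. A log2 difference as low as that of Hba-a2 or lower was found for 6.52% of these bright probes. With limma no probe of the whole array passed an adjusted p of 0.05 (0.0% called, lowest adjusted p = 0.330). At an unadjusted p under 0.05, 3279 probes (9.2%) were higher in TiO2-H and 1583 (4.44%) lower, and among the bright probes 5.84% were lower. Probes called higher made up the larger part with and without scaling (8165 higher and 235 lower without it). Without scaling between arrays the median of all probes shifted to 0.13 and both TiO2-H arrays were below both Sham arrays for 6.15% of probes. The deposited signals of Hba-a1, Hbb-b2, Hbb-bs and Hbb-bt kept that order without scaling, whereas those of Hba-a2 overlapped (156176, 139556, 141551 and 147711). The mean log2 difference of the 5 adult globin probes was then -0.11 in place of -0.23. Relative to the median of all probes it was -0.25 under both by construction, because scaling shifts every probe of an array equally.

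**Figure D3:**
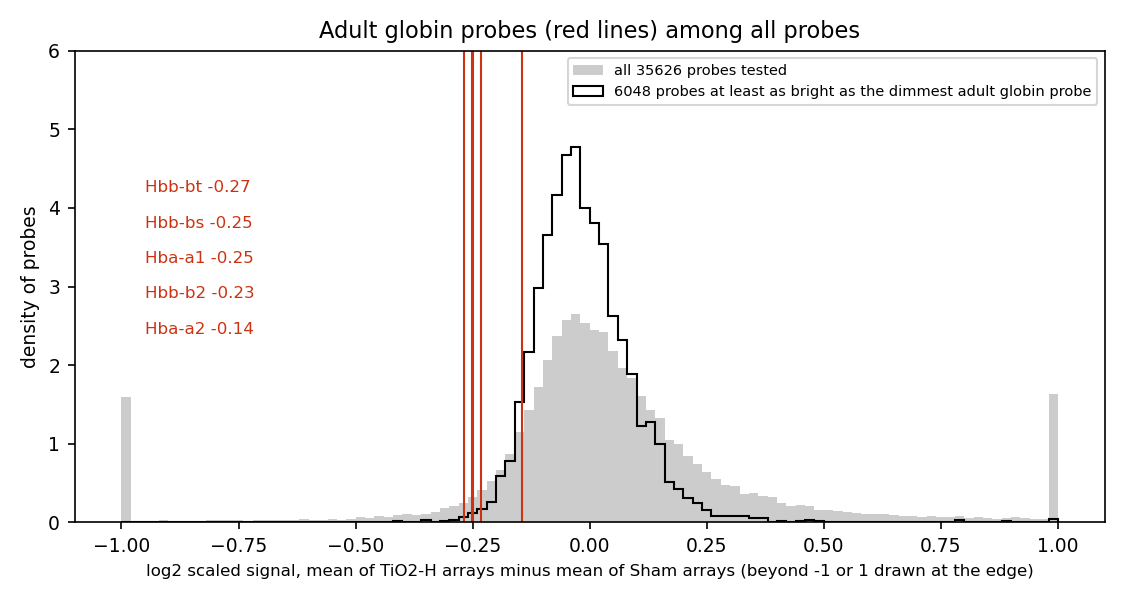
Distribution of the log2 scaled signal difference, TiO2-H minus Sham, over all 35626 probes tested (gray) and over the 6048 bright probes (black outline); values beyond -1 or 1 are drawn at the edge, and red lines mark the 5 adult globin probes. The adult globins lie between -0.27 and -0.14, in the lower part of both distributions.

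Within the labelled sexes the adult globins did not reach the thresholds of 1.5-fold and 0.67-fold. Between the arrays labelled male, TiO2-H over Sham was 0.823-fold for Hba-a1, 0.830-fold for Hbb-b2, 0.836-fold for Hbb-bt, 0.847-fold for Hba-a2 and 0.797-fold for Hbb-bs. Between the arrays labelled female it was 0.861-fold, 0.874-fold, 0.825-fold, 0.967-fold and 0.885-fold in the same order of genes. With the TiO2-H arrays exchanged, Hba-a1 was 0.828-fold over Sham male and 0.856-fold over Sham female. The 5 adult globin probes were then between 0.817-fold and 0.880-fold over Sham male and between 0.809-fold and 0.930-fold over Sham female. The error that the scanner software assigned to single bright spots was about 10% of the signal, which gives a log2 fold between 2 arrays an error of 0.20 for Hba-a1, against log2 folds of -0.28 and -0.22. At these thresholds 4.08% of probes were called higher and 3.29% lower between the arrays labelled male, and 2.65% and 3.31% between those labelled female. Between the Sham arrays themselves, 3.17% of probes were called higher in female and 3.15% lower. Of the members only Gata1 was called in either labelled sex.

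The embryonic globins gave no measurable change. The Hba-x probe, for the zeta-like chain of yolk sac red cells, had signals of 8.12, 8.49, 9.08 and 6.09, all of them within background. Of the 2 probes of Hbb-y, an embryonic beta-like chain, A_55_P1967481 also lay within background on every array (7.73, 17.2, 7.36 and 15.6). These signals have no order that can be read, and no fold was formed.

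The other Hbb-y probe, A_55_P1967478, had signals of 32.7, 40.8, 18.6 and 35.8, and was well above background on the array labelled TiO2-H female alone. The Sham female array read higher than that array without being well above its own background, so that the lone detection is no sign of a higher level. Hbb-bh1, the other embryonic beta-like globin, had signals of 32.3, 36.3, 36.0 and 32.5 and was likewise detected only on the array labelled TiO2-H female. The exposures overlapped for both probes. The software marked the local background of the Hbb-y spot as an outlier on all 4 arrays. A difference between the embryonic and the adult globins in their change was not measurable, because no embryonic probe was well above background on more than 1 array.

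The probes of Hbq1a, Hbq1b and Hbb-bh2 lay near background too. Hbq1a, an alpha-like globin of uncertain role, was detected on all arrays at 38.4, 45.4, 43.7 and 35.1, and the exposures overlapped. Hbq1b, its near copy, was at 29.9, 31.4, 36.2 and 35.2 and was well above background on the TiO2-H arrays only. One probe of Hbb-bh2, a beta-like globin gene, reached 67.2 on the array labelled TiO2-H male and lay within background on the remaining 3. Measured against the lowest signal well above background, it was 2.06-fold higher than on the Sham male array. With the TiO2-H arrays exchanged, it was 1.94-fold higher than on the Sham female array. The second probe of the gene was below background throughout. Outside blood, neuroglobin (Ngb, 2 probes) and cytoglobin (Cygb), which bind oxygen in neurons and connective tissue cells, had log2 differences between -0.08 and 0.03. Myoglobin (Mb), the globin of muscle, lay within background on every array.

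Among the red cell genes, Alas2 followed the adult globins in order but with a wider spread. Its signals were 957, 821, 829 and 878, and its scaled signals 1.18, 1.03, 0.956 and 1.01. Both TiO2-H arrays were below both Sham arrays, although the Sham female and the array labelled TiO2-H female nearly coincided. The log2 difference was -0.17 ± 0.092 (SE; limma, unadjusted p = 0.163, adjusted p = 0.478), and the Sham arrays differed from each other by 0.19, which is more than that difference. The difference was -0.07 without the Sham male array and -0.06 without scaling, where the exposures overlapped (878 on the array labelled TiO2-H female against 821 on the Sham female array).

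Slc4a1 overlapped between the exposures. Its signals were 135, 141, 160 and 134, the highest and the lowest both on TiO2-H arrays. The log2 difference was -0.02 ± 0.12 (SE; limma, adjusted p = 0.921). Its direction turned without the Sham female (0.02) or the TiO2-H female array (0.10).

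Gata1 was the exception among the members. Its signal was 7.61 in Sham males and 7.89 in Sham females, but 538 in the pool labelled TiO2-H male and 90.5 in the pool labelled TiO2-H female. Both TiO2-H arrays were well above background and neither Sham array was, and the TiO2-H arrays differed from each other by 2.58 on the log2 scale. Measured against the lowest signal well above background on the Sham array, Gata1 was 16.5-fold higher by the male labels and 2.61-fold higher by the female labels. With the TiO2-H arrays exchanged, the folds against the floor were 2.77-fold over Sham male and 15.6-fold over Sham female. In these comparisons 3.13% and 3.51% of probes were called higher and 3.62% and 2.92% lower. After normexp background correction the folds by the male and female labels were smaller, at 6.36-fold and 1.78-fold. These values compare single arrays and have no replicate check.

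The detection pattern of Gata1 was seen for 997 probes, 2.8% of the 35635 that were well above background on at least 1 array, whereas the reverse pattern was found for 0.135%. An increase of at least 1.5-fold in both labelled sexes was found for 0.315% of probes and a decrease for 0.214%. The probe was spotted 1 time on each array, in row 1 of the grid at its edge, and the software marked the local background of that spot as an outlier on 3 arrays, all but the array labelled TiO2-H female. Of the 9 other spots around it, 2 were well above background on the array labelled TiO2-H female alone (44.9 and 171). In unscaled signal, 3 were detected on all 4 arrays and brighter on both TiO2-H arrays, with signals of 399, 387, 812 and 578, of 79.2, 71.0, 97.9 and 95.4, and of 72.8, 68.1, 73.4 and 73.6. In scaled signal the last of these 3 was lower on both TiO2-H arrays than on both Sham arrays. The pattern of Gata1 itself was seen at none of the 9 spots. The part of the spot's position and background in the Gata1 values was not tested.

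The other erythroid transcription factors lay on both sides of 0. Of the 14 erythroid transcription factors, 13 had a probe well above background, and 2 of the 15 probes tested were higher and 1 lower at an unadjusted p under 0.05, with none called after adjustment (limma). Gata1, which entered the test through the TiO2-H arrays alone, is among the higher ones, so that this count is no support for it. The other was 1 of the 2 probes of Bcl11a, a repressor of embryonic globins that is also expressed by neurons, and the other Bcl11a probe had a log2 difference of -0.04. The lower one was Ldb1, a cofactor that links GATA1 to the globin locus control region (log2 difference -0.23 ± 0.038 (SE), unadjusted p = 0.00858, adjusted p = 0.354). Klf1, an activator of the adult beta globins, was well above background on the array labelled TiO2-H male alone (34.1, 26.7, 50.4 and 21.9). Sox6, which silences the embryonic beta-like globins, had the highest difference among the factors detected on all arrays (0.24 ± 0.14 (SE), adjusted p = 0.505). The median log2 difference of the list was -0.01, beside 0.02 over all probes tested. At an unadjusted p under 0.05 (limma), 9.2% of all probes tested were higher and 4.44% lower, to be set beside this list and those below.

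Genes of heme synthesis also lay on both sides of 0. All 15 genes of heme synthesis and transport were detected, and of their 18 probes 1 was higher and 1 lower at an unadjusted p under 0.05, with none called after adjustment (limma). The higher one was a probe of Slc25a37 (mitoferrin), the mitochondrial iron importer (0.22 on the log2 scale, adjusted p = 0.354), and the lower one was Slc48a1, a heme transporter (-0.16, adjusted p = 0.362). Among probes detected on all arrays Alas2 had the lowest difference. The list's median was -0.04, and 7 of its 18 probes had both TiO2-H arrays below both Sham arrays, beside 23.7% of all probes tested.

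Membrane genes of red cells were mixed. Of the 17 genes, 12 had a probe well above background, and 2 of 15 probes were higher and 1 lower at an unadjusted p under 0.05 (limma, none after adjustment). Epb41 (protein 4.1), which ties the cytoskeleton to the membrane, gave, among probes detected on all arrays, both the highest difference of the list (0.31 ± 0.039 (SE), probe A_55_P2240823, unadjusted p = 0.00401, adjusted p = 0.354) and the lowest (-0.18 ± 0.12 (SE), probe A_55_P2005345, adjusted p = 0.534). The other probes past the unadjusted threshold were Dmtn (dematin), higher by 0.14, and Tspan33, lower by -0.16. Epb42, Rhag and Kel, which are close to specific for red cells, were not well above background on any array.

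Red cell enzymes and chaperones held 1 probe that was lower at an unadjusted p under 0.05 among 14 tested, and none after adjustment (limma). This was Hemgn (hemogen), a nuclear protein of hematopoietic cells, with scaled signals of 21.9 and 20.9 on the Sham arrays and 19.0 and 19.3 on the TiO2-H arrays (log2 difference -0.16 ± 0.048 (SE), adjusted p = 0.359). Car1, a carbonic anhydrase of red cells, had the highest difference (0.26 ± 0.14 (SE), adjusted p = 0.476). Trim58, which acts in late erythroblasts, was detected on the Sham female array alone (375). Signalling by erythropoietin and stem cell factor held 2 higher probes of 7, Epor, the erythropoietin receptor (0.14), and Kitl, the ligand of Kit (0.28 ± 0.065 (SE), adjusted p = 0.354), and Stat5a had the lowest difference (-0.13, adjusted p = 0.720). Epo itself lay within background on every array.

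**Figure D4:**
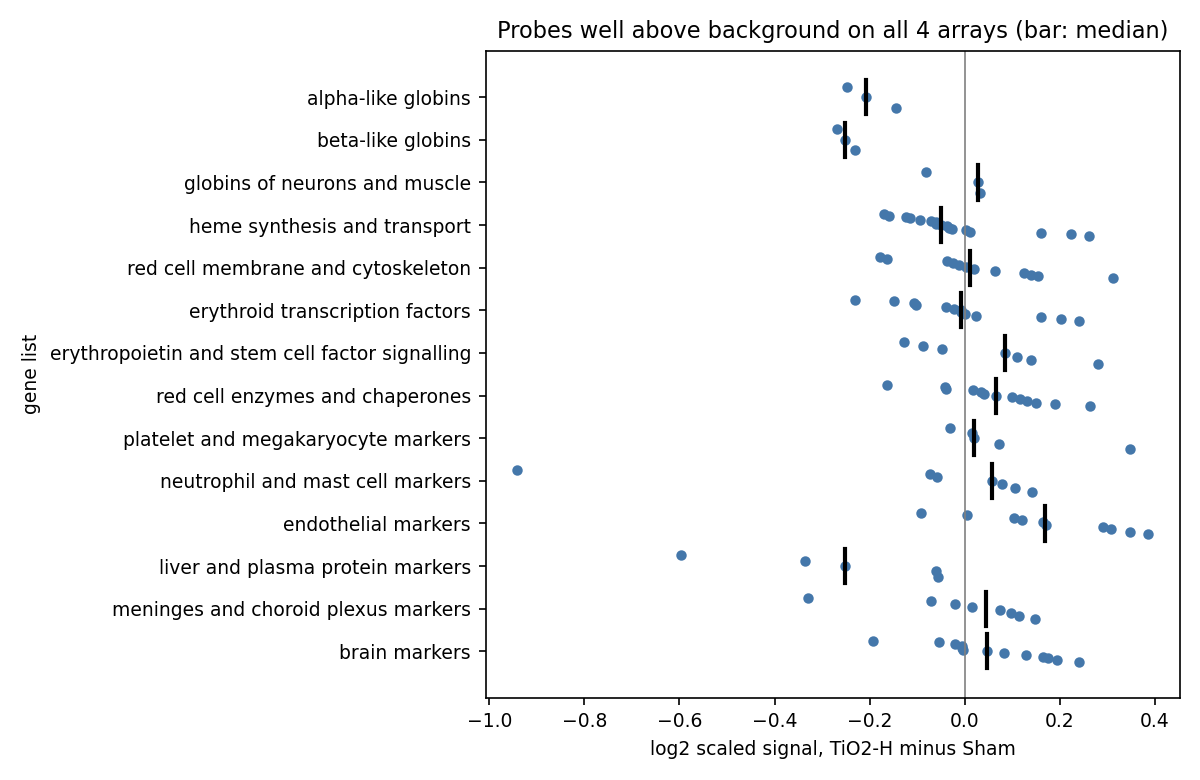
Log2 scaled signal difference, TiO2-H minus Sham, of each probe well above background on all 4 arrays, by gene list (points), with the median of the list (bar). The alpha-like and beta-like globins lie below 0 throughout, and so do the liver and plasma protein probes, whereas the other blood lists fall on both sides.

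Markers of other cells that blood or the dissection could bring were read on the same arrays. Liver and plasma protein markers were lower on the TiO2-H arrays like the adult globins: of 5 probes tested, 3 were lower at an unadjusted p under 0.05 (Afp, Serpina1a and 1 of the 2 Apoa2 probes), 4 had both TiO2-H arrays below both Sham arrays, and the median was -0.25. Over all probes tested, 4.44% were lower at that threshold (limma) and 23.7% had both TiO2-H arrays below both Sham arrays. Serpina1a, a plasma protease inhibitor, had the lowest difference (-0.60 ± 0.091 (SE), adjusted p = 0.354 with limma) and Ttr, which the choroid plexus also makes, the highest (-0.06). The Serpina1a value came from 1 of its 2 probes, at dim signals of 54.7, 58.3, 42.8 and 38.3. Neither Alb nor Apoa1, the defining liver markers, was well above background anywhere. Summed over the list, the scaled signal was 86.9 to 89.4 on the Sham arrays and 84.4 to 85.1 on the TiO2-H arrays. Most of this sum was Ttr alone, with scaled signals of 82.1, 79.9, 77.4 and 78.5 in the order of arrays. The sum is therefore no measure of the other liver and plasma probes. The part of this list in the globin values was not tested.

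Endothelial markers lay mostly above 0. Of their 10 probes, 5 were higher at an unadjusted p under 0.05 and none lower, with a median of 0.17 and none called after adjustment (limma). Over all probes tested, 9.2% were higher at that threshold. Tie1, a receptor of vessel cells, had the highest difference (0.39 ± 0.11 (SE), adjusted p = 0.355), and 1 of the 2 probes of Kdr, the main receptor for VEGF, the lowest (-0.09). The summed scaled signal was 23.7 to 24.8 on the Sham arrays and 24.5 to 25.1 on the TiO2-H arrays, which overlap, and its part in the globin values was not tested. Platelet markers had no probe past the unadjusted threshold among 6. Of those detected on all arrays a probe of Gp1bb had the lowest difference (-0.03), and Pf4, an abundant platelet mRNA, differed by 0.01. Neutrophil and mast cell markers had 1 of 13, the neutrophil granule gene Ngp, which was higher and well above background on the array labelled TiO2-H male alone (42.6). Among probes of that list detected on all arrays, S100a8 had the highest difference (0.14) and the mast cell protease Cpa3 the lowest (-0.94 ± 1.1 (SE), adjusted p = 0.677), from a signal of 235 on the Sham female array against 39.1 to 61.9 on the others. Meninges and choroid plexus markers ran from -0.33 (Folr1) to 0.15 (Dcn), and brain markers from -0.19 (Rbfox3) to 0.24 (Map2). The software marked the local background of the Dcn and Rbfox3 spots as an outlier on every array but Sham female. It did so for Cpa3 on both TiO2-H arrays and for Tie1 on the Sham female array.

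The shape of the Hba-a1 profile over the 4 arrays was compared with every other probe detected on all of them, as the Euclidean distance between centred log2 values. The nearest genes outside the members were Ms4a4c (distance 0.011), Mertk (0.017), Zbed5 (0.020), Gstm4 (0.021) and Gm11961 (0.022). Ms4a4c had scaled signals of 37.4, 35.8, 31.0 and 31.1. Hbb-b2 lay at 0.025 from Hba-a1, with 16 of 29405 other probes as near or nearer. Hbb-bt lay at 0.046 with 68 such probes, Hbb-bs at 0.089 with 528, and Hba-a2 at 0.12 with 1505. Alas2 lay at 0.13 with 2003 and Slc4a1 at 0.31 with 16033, which is 54.5% of the probes compared. With 4 arrays these distances describe how alike the changes between arrays were, in order and in size, and carry no test.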

How the data were processed

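Per the file headers, the authors scanned 1 one-color array per pool and made the intensity values with Feature Extraction 10.10.1.1, which subtracts the local background and sets spots not above it to small positive values. The intensity values in the deposited table equalled those of the scanner output for all 59305 non-control spots (within 0.1%). Outlier spots (138 to 181 per array) were left out, spots of a probe averaged, and log2 signals taken relative to the array's 75th percentile (795 to 871). A probe counted as well above background where the software so marked it. Where it was not, folds were formed against the lowest signal well above background on that array. Accessions were named through the RefSeq gene table of GRCm38.p6, which held 98.0% of the 21887 RefSeq accessions.

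TiO2-H was compared with Sham by limma (version 3.58.1, R version 4.3.3). P-values were adjusted by the Benjamini-Hochberg method over the 35626 probes well above background on at least 1 array and left after the outlier filter, without sex as a term. The other steps used Python 3.11.15, numpy 2.4.6, pandas 2.3.3 and matplotlib 3.10.9. The limma fit and the fold thresholds, without the floor, were tested on simulated data, and the remaining steps were not. The genes named are every member and globin probe, list probes past the fold thresholds in both labelled sexes, the highest and lowest difference of each list among probes detected on all arrays, and the 5 genes nearest to Hba-a1. Other genes were named after their values were seen, being probes past the unadjusted threshold or defining markers. The members and lists were chosen with earlier results of these data known. The alternatives were other scalings and background corrections, filters, floors and thresholds, sex as a block, and each array left out. Spots with a background flag left out were an alternative chosen after seeing the data. Precision is limited by the number of arrays. CpG island arrays were not analysed here. Single values of some listed genes are not reported here.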

Additional observations from a re-analysis of the deposited data

Results flagged for a closer look

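Sex-linked RNAs moved in opposite directions between the arrays labelled male and those labelled female. The log2 fold of TiO2-H over Sham between the arrays labelled male, minus that between the arrays labelled female, was 7.11 and 4.57 for the 2 probes of Xist, -10.2 for Eif2s3y and -9.20 for Ddx3y. Parts of these folds were formed against the lowest signal well above background, and the difference was not tested, since each group had 1 array. The adult globins and Gata1 were also given with the TiO2-H arrays exchanged for this reason.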

How the results depend on the processing

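The mean log2 difference of the 5 adult globin probes was below 0 under every alternative run, but many of these could not move it. Filters that add or drop other probes, the deposited values and sex as a block left it at -0.23 by construction. With quantile normalization and with normexp it was -0.21. It ranged from -0.26 to -0.20 when each array was left out. Its sign could not turn there, because all 5 probes had both TiO2-H arrays below both Sham arrays. The mean was -0.11 without scaling, where the median of all probes itself shifted to 0.13. No probe passed an adjusted p of 0.05 in any limma fit. At an unadjusted p under 0.05, 4862 probes were called (3279 higher and 1583 lower), against 8400 without scaling (8165 higher and 235 lower), and 3171 to 3852 with each array left out, the fewest without TiO2-H female. With sex as a block (replicate block), 3086 were called by label and 2809 with TiO2-H crossed. The mean of the adult globins could not move in either, since each exposure holds both labels. Its value of -0.23 in both is therefore no test of the labels. The sex labels form the only pairing, and they go against the sex-linked RNAs.

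Slc4a1 changed sign without scaling (0.090, below the shift of all probes), without Sham female (0.016) and without TiO2-H female (0.10), with a range of -0.15 to 0.10 when each array was left out, and Hbb-bh1 changed sign after normexp (0.045). Gata1 could not be fitted with background-marked spots left out, since only the TiO2-H female spot carries no mark. The adjusted p ranged from 0.221 to 0.566 for Hba-a1, from 0.224 to 0.580 for Hbb-b2, and from 0.20 to 0.56 for Hbb-bt.

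Counts of probes past the fold thresholds moved with the setting. Higher and lower calls were 1359 and 1096 between the arrays labelled male, 902 and 1127 between those labelled female, and 1016 and 1009 between the Sham arrays. After normexp, higher calls were 577 and 330 by label and lower calls 731 in female, with 546 and 625 between the Sham arrays. With detection required on both arrays they were 571 and 401, 355 and 490, and 354 and 339. At 2-fold they were 487 and 690, 342 and 723, and 583 and 632. Without a floor, higher calls were 2076 and 1919, and without scaling 1511 in female. The cause was not tested. With 1 array per group the error of a dim spot cannot be separated from a difference between pools: the median SD between spots of a probe was 0.064 to 0.067 on the log2 scale where well above background and 0.20 to 0.37 where not.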
